A study of Mus musculus with 6 samples.

Results

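The genes that build, load and digest autophagosomes were compared between the hearts of mice fed a normal diet (ND) and mice fed a high fat diet (HFD). They were taken from the probe annotation of the arrays by name, and the names were chosen with earlier results of these data known. The rule took every gene whose symbol starts with Atg and a number. It added a list of initiation kinases, lipid kinase subunits, Atg8 proteins, cargo receptors, mitophagy receptors and lysosomal proteins. This gave 42 genes with 62 probes, out of 36163 gene names and 55681 probes other than controls. A pair of listed names, Tfeb and Depdc6, matched no probe name and is not analysed here. All animals were male C57BL/6 mice that started their diet at 4 weeks of age and stayed on it for 4 months. The 3 ND mice ate standard chow, the 3 HFD mice a diet with 60% of its kcal from fat, and no transgene or drug is given for either group. RNA of heart tissue was labelled with Cy3 and hybridised to Agilent arrays read in 1 colour, 1 array per heart. The sample titles do not say which part of the heart was taken.

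Autophagy wraps cytoplasm, protein aggregates or worn organelles in a double membrane and delivers them to the lysosome, where cathepsins and other hydrolases break them down. The ULK1 kinase complex starts the process, a class III PI3-kinase marks the membrane, ATG9 and ATG2 supply lipid, and conjugation enzymes attach Atg8 proteins such as LC3 and GABARAP to the growing sheet. In the heart, where mitochondria fill much of the cardiomyocyte, mitophagy through PINK1 or through receptors such as BNIP3 and BNIP3L removes damaged mitochondria, and fasting is a classical inducer of the pathway. Much of its control acts on proteins (phosphorylation, lipidation, turnover), which an mRNA array does not measure.

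The levels below are log2 intensities relative to the 75th percentile of the same array, and a log2 fold change is the HFD mean minus the ND mean on that scale. A level depends on the probe, so levels of different probes are not set against each other. In this unsorted heart tissue, fewer cells of a type and less RNA per cell cannot be told apart. Of the 55681 probes, 49.2% to 52.9% were well above background on an array, no spot was saturated, and all arrays lay on 1 slide. HFD 1 and HFD 2 lay on row 1 of it and the other 4 arrays on row 2. The cardiomyocyte markers (10 of 10 tested) had a mean level of 8.17 to 8.19 in the ND and 8.0 to 8.22 in the HFD hearts, as the tissue label says. HFD 2 stood apart in its atrial muscle markers, with a mean level of 0.77 against 3.52 to 6.14 in the other 5 hearts. It also stood apart in its adipocyte markers, with -1.77 against -0.06 to 0.95. The part of these differences in any result below was not tested.

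The probes that carried the clearest differences are shown first, since each value below is the signal of 1 such stretch of a transcript. Each probe has 60 bases, of which the first 30 are printed, 5′ to 3′ along the transcript as the array design gives them, in lower case with no base marked. Positions are those of the whole probe on mm9. The Ulk1 probe lies on the minus strand at chr5:111213514-111213573, that of Atg9a on the minus strand at chr1:75184260-75184319, that of Atg2a on the plus strand at chr19:6261741-6261800 and that of Ctsl on the minus strand at chr13:64465287-64465346. The distal Bnip3l probe lies on the minus strand at chr14:67604077-67604136, and the proximal one, the first of its 4 probes along the transcript, at chr14:67606311-67606370. No gene models of mm9 were used here, so the exon or untranslated region that holds a probe is not given.
Ulk1: gtgagtctcccccttttgtgtttcactgtg
Atg9a: taacatttgctgctattgggagatccactc
Atg2a: aacatccaacgtgctagggggcatgcgtaa
Ctsl: accaaacccttattgagtcaaaccatggta
Bnip3l, distal: acagaactcatgtaacttgtagctataaac
Bnip3l, proximal: gtaagacactttagagattcctaacagagt

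After 4 months of a HFD, the measured mRNA differences of the autophagy machinery from the ND hearts were small, with 3 hearts per diet. Of the 62 probes, 61 probes of 41 genes were bright enough to be tested. The probe of Atg4a, a protease that trims Atg8 proteins, was at background on all 6 arrays. After adjustment over all 27585 probes tested in limma, 0 of the 61 differed between the diets, where 0.0145% of all probes did. At an unadjusted p below 0.05, 5 of the 61 (8.20%) differed, against 11.7% of all probes tested. All 5 were lower in HFD (6.36% of all probes were lower and 5.37% higher at that limit). They belong to Ulk1, Atg9a, Atg2a, Ctsl and Bnip3l. The 3 HFD values did not overlap the 3 ND values for 7 of the 61 probes, all 7 lower in HFD, where 18.9% of all probes tested did not overlap and 10.7% were lower in every HFD heart. These shares of members lie near or under those of all probes. With single hearts left out, the 5 became 2 without ND 1, ND 2 or HFD 1, 3 without HFD 3 and 6 without HFD 2, the heart with low atrial markers. The share of all probes at that limit was 7.8%, 8.2%, 11.7%, 10.2% and 12.4% without ND 1, ND 2, HFD 1, HFD 3 and HFD 2. Atg9a and Atg2a were below 0.05 in each of the 6 such fits (largest unadjusted p of 0.0196 and 0.0499), Ulk1 and Ctsl in 2 and Bnip3l in 1. The 7 (11.5%) became 11 (18%) without ND 1 or ND 2, 12 (19.7%) without ND 3, 14 (23.0%) without HFD 1 and 20 (32.8%) without HFD 2. The share of all probes moved as well, to 25.5%, 25.9%, 31.2%, 31.0% and 32.5% without ND 1, ND 2, ND 3, HFD 1 and HFD 2. Under quantile normalization and in the deposited log2 values, 14 (23.0%) and 15 (24.6%) member probes did not overlap, 3 of them higher in HFD in each, against 20.2% of all probes in both.

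The changes of the members were small in size. The 61 log2 fold changes ran from -0.35 to 0.27, with a median of -0.05 against -0.01 over all probes tested. The upper end was Atg9b, whose probe was tested only through the HFD group, and the next was Sqstm1 at 0.12. A lower mean in HFD was found for 41 of the 61 (67.2%), against 51.2% of all probes. Without HFD 1 the median of the members was 0.00952, and without HFD 2 it was -0.08. The 95% interval of the change lay within 2-fold in either direction for 61 of the 61 probes, against 89.9% of all probes, and within 1.5-fold for 56 of 61 (91.8%), against 71.4%. It lay within 1.25-fold for 36 of 61 (59.0%), against 34.3%. For these probes a doubling or halving of the mRNA after 4 months of HFD lies outside the interval, and smaller changes lie inside it for many.

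**Figure D1:**
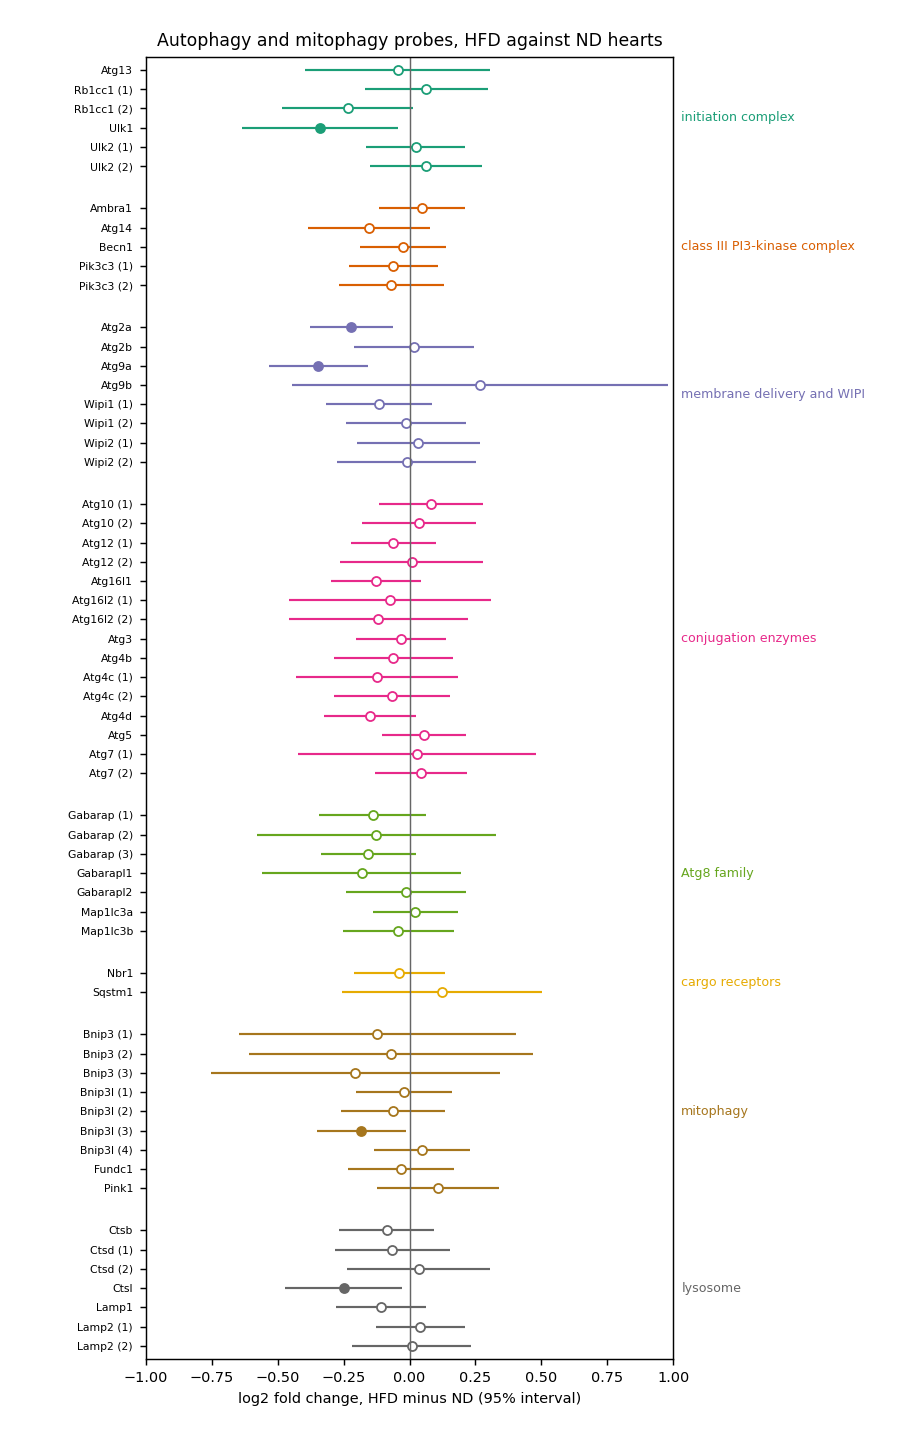
The log2 fold change between HFD and ND hearts (x axis, HFD minus ND) is plotted for 59 of the 61 tested probes, in role groups, with its 95% interval from limma as a line. Filled points mark the 5 probes at an unadjusted p below 0.05, all left of 0, and numbers in brackets separate the probes of a gene.

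**Figure D2:**
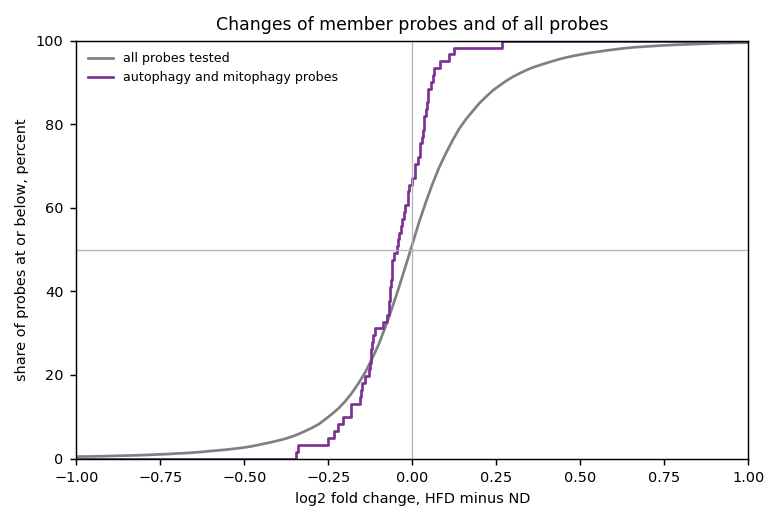
The cumulative share of probes (y axis, percent) is plotted at or below each log2 fold change (x axis, HFD minus ND) for the 61 member probes and for all 27585 probes tested. The member curve is steeper and crosses 50% at -0.05, the curve of all probes at -0.01.

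In the initiation complex, Ulk1, the kinase that starts autophagosome formation, was lower in HFD hearts. Its levels were 5.74, 5.81 and 5.54 in ND 1 to 3 and 5.26, 5.56 and 5.25 in HFD 1 to 3. HFD 1 and HFD 3 lay below every ND heart, and HFD 2 lay just above ND 3, so the diets overlapped. The difference was -0.34 (SE 0.121, n = 3 per diet), which put the HFD mean at 79.0% of the ND mean, with an unadjusted p = 0.0308 and an adjusted p = 0.378 in limma. The other 5 probes of the group, for the paralogue Ulk2, the scaffold Rb1cc1 (FIP200) and the adaptor Atg13, had unadjusted p-values above 0.05 and changes of -0.23 to 0.06. The probes of Rb1cc1 went opposite ways: the one whose 60 bases are spread over 3136 bases of mm9 changed by -0.23 (unadjusted p = 0.0612) and the one 9760 bases further downstream by 0.06 (unadjusted p = 0.531). Both Ulk2 probes were at 0.02 and 0.06.

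In the class III PI3-kinase complex, which makes the lipid that recruits the later factors, none of 5 probes reached an unadjusted p of 0.05. The change furthest from 0 was that of Atg14, the subunit that directs the kinase to autophagy. Its levels were 0.95, 0.85 and 1.0 in the ND hearts and 0.63, 0.89 and 0.83 in the HFD hearts. HFD 1 was the lowest of the 6, and HFD 2 lay above ND 2. The change was -0.15 (SE 0.0946, unadjusted p = 0.159), and -0.07 without HFD 1. Becn1 (Beclin 1), Pik3c3 (the catalytic subunit) and Ambra1 (a Beclin 1 partner) changed by -0.07 to 0.05.

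Among the genes that bring lipid and PI3P-binding proteins to the growing membrane, Atg9a and Atg2a were lower in all HFD hearts. Atg9a encodes the scramblase that travels in vesicles to the forming membrane. Its levels were -1.74, -1.80 and -1.86 in ND 1 to 3 and -2.20, -2.20 and -2.05 in HFD 1 to 3. Every HFD heart lay below every ND heart, and the gap between the groups was wider than the range within either. The difference of -0.35 (SE 0.0772, HFD at 78.7% of ND) had an unadjusted p = 0.00419 and an adjusted p = 0.238. Atg2a, which moves lipid into the membrane from the endoplasmic reticulum, stood at 0.98, 0.97 and 0.95 in the ND hearts and at 0.69, 0.79 and 0.76 in the HFD hearts. The diets were apart for this probe too, and the ND hearts lay within 0.04 of each other. Its change was -0.22 (SE 0.0643, HFD at 85.8% of ND, unadjusted p = 0.0138, adjusted p = 0.305).

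Of the close relatives of these genes, Atg2b changed by 0.02, with an interval of -0.21 to 0.24. The Atg9b probe was well above background on 5 of 6 arrays, all but that of ND 3, and was tested only through the HFD group. Its change of 0.27 (SE 0.292, unadjusted p = 0.395) had the widest interval of the 61, from -0.45 to 0.98, which holds the change of Atg9a. The difference in response between the paralogues was not tested. The 4 probes of Wipi1 and Wipi2, which bind PI3P on the membrane, changed by -0.12 to 0.03, and none of them reached an unadjusted p of 0.05.

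The conjugation enzymes attach ATG12 to ATG5 and Atg8 proteins to lipid. Of their 16 probes 15 were tested, 9 were lower and 6 higher in HFD, and 0 reached an unadjusted p of 0.05. Their changes ran from -0.15 to 0.08 with a median of -0.06. The change furthest from 0 was that of Atg4d, another Atg8 protease, at 5.09, 5.0 and 4.96 in the ND hearts and 4.89, 4.81 and 4.89 in the HFD hearts. These values did not overlap, with a difference of -0.15 (SE 0.0709, unadjusted p = 0.0787, adjusted p = 0.482). The values of Atg16l1, which places the conjugation step on the membrane, did not overlap either, with a change of -0.13 (unadjusted p = 0.117). Atg5 changed by 0.06, Atg7 (the E1-like enzyme) by 0.03 and 0.04 on its probes, Atg10 (an E2-like enzyme) by 0.04 and 0.08, and Atg3 (the other E2-like enzyme) by -0.03.

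The Atg8 family are the small proteins that coat the autophagosome, and of its 7 probes 6 were lower and 1 higher in HFD, with 0 at an unadjusted p below 0.05. The change furthest from 0 was that of Gabarapl1. Its levels were 7.23, 7.18 and 7.06 in the ND hearts and 6.74, 7.30 and 6.88 in the HFD hearts. The HFD hearts spread more widely than the ND hearts, since HFD 2 was the highest of the 6 and HFD 1 the lowest. The change of -0.18 had an SE of 0.155 (unadjusted p = 0.284) and rested on these hearts, at -0.06 without HFD 1 (unadjusted p = 0.679) and -0.34 without HFD 2 (unadjusted p = 0.0137). All 3 Gabarap probes were lower, by -0.13, -0.14 and -0.16 on the log2 scale, and the diets did not overlap for the last of these (unadjusted p = 0.0771). Map1lc3a and Map1lc3b, the genes of LC3, changed by 0.02 and -0.04, and Gabarapl2 by -0.01.

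The cargo receptors, which tie ubiquitinated material to LC3, were the 2 probes of Sqstm1 (p62) and Nbr1. Sqstm1 stood at 3.90, 3.77 and 3.76 in the ND hearts and at 3.71, 4.27 and 3.83 in the HFD hearts. HFD 2 was the highest and HFD 1 the lowest of the 6, so that the mean difference of 0.12 (SE 0.155, unadjusted p = 0.455) came from 1 heart: it was -0.04 without HFD 2. Nbr1 changed by -0.04.

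Among the mitophagy genes, 9 of 11 probes were lower in HFD and 1 reached an unadjusted p of 0.05. This was the distal probe of Bnip3l (NIX), an outer membrane receptor that binds Atg8 proteins, at 2.80, 2.85 and 2.72 in the ND hearts and 2.58, 2.61 and 2.65 in the HFD hearts. Every HFD heart lay below every ND heart, with a difference of -0.18 (SE 0.0685, HFD at 88.2% of ND, unadjusted p = 0.0375, adjusted p = 0.397). The other 3 probes of Bnip3l had intervals on both sides of 0. The proximal probe printed above stood at 2.55, 2.44 and 2.52 in the ND and 2.48, 2.63 and 2.54 in the HFD hearts, a change of 0.05 (SE 0.0742, unadjusted p = 0.544). The next probe, 101 bases downstream, stood at 4.65, 4.67 and 4.56 in the ND and 4.51, 4.68 and 4.50 in the HFD hearts, a change of -0.06 (unadjusted p = 0.468). The one 224 bases downstream stood at 3.85, 3.85 and 3.72 in the ND and 3.72, 3.85 and 3.79 in the HFD hearts, a change of -0.02 (unadjusted p = 0.782). The distal probe lies 2234 bases downstream of the first. The intervals of the probes 101 and 224 bases downstream, -0.26 to 0.13 and -0.20 to 0.16, hold the change of the distal probe. That of the proximal probe, -0.13 to 0.23, does not. The difference between probes was not tested.

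Bnip3, the paralogue of Bnip3l and a target of hypoxia signalling, varied between hearts more than between diets. Its 3 probes lie within 224 bases of each other by their starts, and the one furthest from 0 stood at 1.13, 0.92 and 0.59 in the ND hearts and at 0.28, 1.0 and 0.76 in the HFD hearts. HFD 1 was the lowest of the 6, and HFD 2 and HFD 3 lay among the ND hearts. The change was -0.20 (SE 0.223, unadjusted p = 0.395). The other probes followed the same hearts, with HFD 1 the lowest and HFD 2 the highest on both, at 5.84 and 6.68 on the one and 6.89 and 7.66 on the other. Their changes were -0.12 and -0.07. The difference of the first probe was -0.00448 without HFD 1, -0.08 without ND 1, -0.35 without ND 3 and -0.37 without HFD 2. Pink1, the kinase that marks depolarised mitochondria, changed by 0.11 (unadjusted p = 0.296), and Fundc1, a receptor of hypoxic mitophagy, by -0.03.

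In the lysosome, Ctsl (cathepsin L, a cysteine protease) was lower in HFD hearts. Its levels were 6.19, 6.11 and 6.11 in ND 1 to 3 and 5.73, 5.96 and 5.97 in HFD 1 to 3. The diets did not overlap, and HFD 1 lay furthest down. The change was -0.25 (SE 0.0904, HFD at 84.1% of ND, unadjusted p = 0.0325, adjusted p = 0.383), and -0.17 without HFD 1 (unadjusted p = 0.0624). The other 6 probes, for the cathepsins Ctsb and Ctsd and the membrane glycoproteins Lamp1 and Lamp2, changed by -0.11 to 0.04, and 0 of them reached an unadjusted p of 0.05. Lysosomal genes are also strongly used by macrophages, and 13 of 13 macrophage markers were tested. Their mean level was 1.05 to 1.12 in the ND hearts and 0.69 to 1.0 in the HFD hearts, and 10 of the 13 were lower in HFD (median change -0.17). The part of macrophages in the Ctsl difference was not tested.

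**Figure D3:**
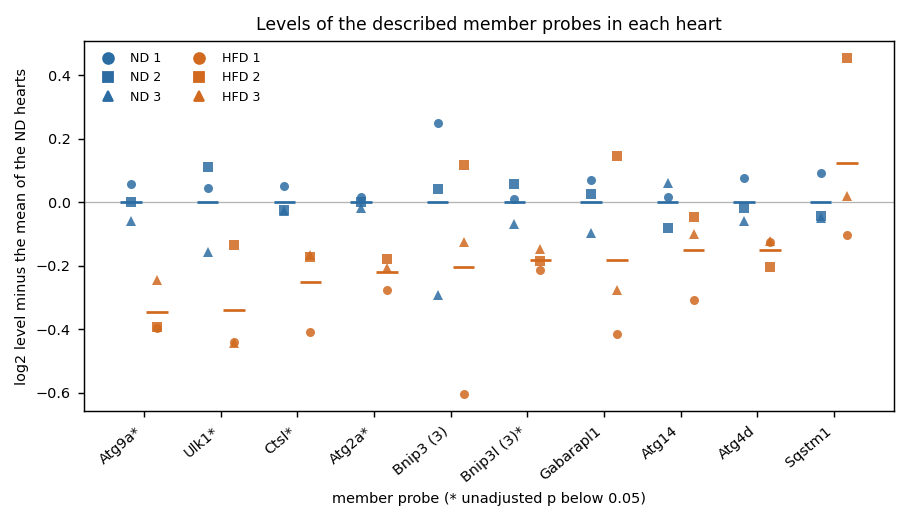
The level of each described probe in each heart is plotted as the log2 level minus the mean of the ND hearts (y axis), with symbols for hearts 1 to 3 and short lines for the mean of each diet. Asterisks mark an unadjusted p below 0.05, and the HFD hearts lie below the ND hearts without overlap for Atg9a, Ctsl, Atg2a, the distal Bnip3l probe (3) and Atg4d.

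The slide rows did not hold the diets evenly, since ND hearts lay only on row 2. With the slide row as a term, which compares HFD 3 with the 3 ND hearts of its row, 0 of the 61 probes had an unadjusted p below 0.05, where 7.6% of all probes did. This leaves an arm of 1 heart, assumed to vary like the others. HFD 3 lay below every ND heart for the 5 probes, and its differences were -0.44 for Ulk1, -0.25 for Atg9a, -0.21 for Atg2a, -0.17 for Ctsl and -0.15 for Bnip3l. Their unadjusted p-values ran from 0.0540 to 0.255. Row 1 held HFD hearts only and gives no comparison of its own.

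The hearts differed in a way that many member probes shared. HFD 1 was the lowest of the 6 hearts for 32 of the 61 probes (52.5%, against 25.5% of all probes tested) and the highest for 0. HFD 2 was the highest for 20 (32.8%, against 26.7%) and ND 1 for 22 (36.1%, against 19.2%). The median deviation of the members from the mean of the ND hearts was -0.12 in HFD 1, 0.04 in HFD 2 and -0.04 in HFD 3, against -0.04, 0.03 and -0.01 over all probes. It was 0.05, -0.01 and -0.05 in ND 1, ND 2 and ND 3. The range over the 3 hearts was wider in HFD than in ND for 42 of the 61 probes (68.9%, against 60.7% of all probes).

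**Figure D4:**
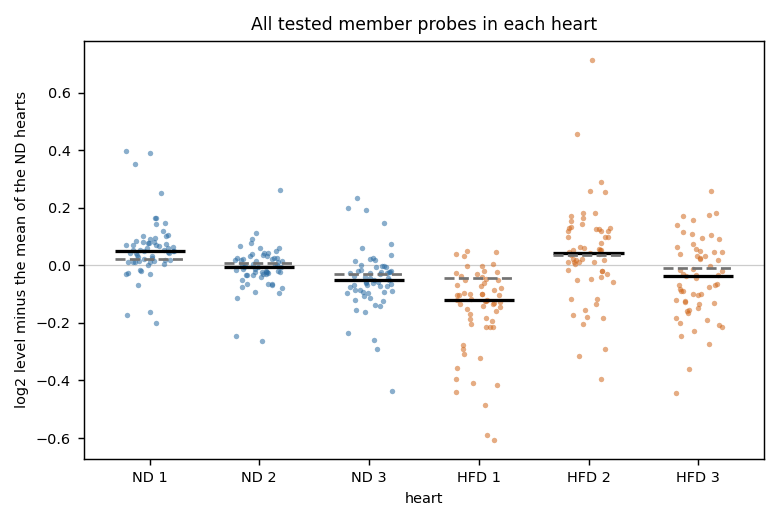
Each point is 1 of the 61 tested member probes in 1 heart, as the log2 level minus the mean of the ND hearts for that probe (y axis). Solid lines give the median over the member probes and dashed lines that over all probes tested, with HFD 1 lowest at -0.12 against -0.04.

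Several probes of a gene read the same RNA on the same arrays, so their agreement in sign is no independent check on a difference between the diets. Of the 41 genes tested, 16 had more than 1 tested probe, and for 11 of the 16 all probes had a change of the same sign. The share among all genes with several probes is not given here. The genes with probes of both signs were Atg12, Rb1cc1, Ctsd, Wipi2 and Bnip3l. Ulk1, Atg9a, Atg2a and Ctsl had 1 tested probe each, so no other probe bears on their values.

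Many lysosomal and autophagy genes are known to carry E-boxes that TFEB binds, and FOXO factors are known to act on others, so the promoters of the members were searched for these letters. RefSeq windows on GRCm38.p6, from 250 bases before to 50 after a start, were found for 33 of the 42 genes. The E-box CACGTG, which reads the same on both strands, occurred in a window of 8 of the 33 genes (24.2%), against 8.1% of 27025 genes. These were Atg3, Atg5, Atg7, Atg14, Bnip3, Ctsd, Ctsl and Lamp1. The longer GTCACGTG, which contains the E-box, occurred on either strand for 5 of the 33 (15.2%, against 2.5%), and the FOXO motif GTAAACA on either strand for 0 of the 33 (against 4.1%). The last count says only that these letters are not in these windows. Stretches around the longer motif are shown for a lysosomal hydrolase, a lysosomal membrane protein and a conjugation enzyme, and around the E-box for Ctsl, each 5′ to 3′ along the gene with the motif in capitals. They lie at chr7:142387896-142387947 on the minus strand (Ctsd), chr8:13159111-13159160 on the plus strand (Lamp1), chr16:45158734-45158785 on the plus strand (Atg3) and chr13:64370729-64370770 on the minus strand (Ctsl).
Ctsd: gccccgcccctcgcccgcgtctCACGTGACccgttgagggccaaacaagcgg
Lamp1: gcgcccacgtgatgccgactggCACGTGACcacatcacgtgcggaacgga
Atg3: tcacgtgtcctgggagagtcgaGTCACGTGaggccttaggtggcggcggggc
Ctsl: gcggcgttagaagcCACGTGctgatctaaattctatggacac

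The 12 tested probes of the 8 genes with an E-box changed by -0.25 to 0.06 (median -0.07), 8 of them lower in HFD and 1 (Ctsl) at an unadjusted p below 0.05. The 33 tested probes of the 25 other genes with a window changed by -0.35 to 0.27 (median -0.04), 21 of them lower and 3 at that limit. The upper end is again that of Atg9b, tested only through the HFD group. No test was made between them.

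Outside the members, 122 genes of the signalling upstream, of autophagosome traffic, of mitochondrial dynamics and of the lysosome were described by the brightest tested probe of each. Of the 120 tested, 17 (14.2%) had an unadjusted p below 0.05, against 11.8% of the brightest probes of all genes. Of the 17, 14 were lower and 3 higher in HFD, and 0 passed the adjustment. Of all probes tested, 6.36% were lower and 5.37% higher at that limit. The diets did not overlap for 33 of the 120, 30 of them lower in HFD. Of all probes tested, 18.9% did not overlap and 10.7% were lower in every HFD heart. The related genes lay above both shares, which are over all probes and not over the brightest of each gene. The 17 became 6 without ND 1 and 9 without ND 2 or HFD 3. They were fewer than 6 in a fit that included slide row, which leaves an arm of 1 HFD heart. The share of all probes at that limit fell as well, from 11.7% to 7.8% without ND 1, 8.2% without ND 2 and 10.2% without HFD 3. The median change over the 120 was -0.05, and 77 were lower in HFD (64.2%), against -0.01 and 51.2% over all probes tested.

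The signalling genes held the widest differences. Of 26 tested genes of mTOR, AMPK, sestrin and FOXO signalling, 4 were lower and 2 higher at an unadjusted p below 0.05. This is a share of 23.1%, against 11.8% of the brightest probes of all genes. Foxo3, a transcription factor known to drive autophagy genes in muscle, stood at -1.13, -0.90 and -1.01 in the ND hearts and at -1.88, -1.85 and -1.62 in the HFD hearts. The diets were far apart on this probe, with a difference of -0.77 (SE 0.106, unadjusted p = 0.000343, adjusted p = 0.115). The other tested Foxo3 probe changed by -0.23 (SE 0.231, unadjusted p = 0.354). The difference between the Foxo3 probes was not tested. Foxo4 stood at -3.70, -3.66 and -4.20 in the ND hearts and at -2.84, -3.08 and -3.24 in the HFD hearts, a difference of 0.80 (SE 0.183, unadjusted p = 0.00472, adjusted p = 0.244). Its second probe changed by 0.20 (SE 0.211, unadjusted p = 0.376).

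The remaining signalling genes at that limit were Foxo1, Sesn1, Rhebl1 and Prkag2. Foxo1 changed by -0.24 (unadjusted p = 0.0175) on its brightest probe and by -0.14 (unadjusted p = 0.229) on the other. Sesn1, a stress sensor that restrains mTORC1, changed by -0.50 (SE 0.137, unadjusted p = 0.0108), with 5.09, 5.02 and 5.02 in the ND hearts and 4.31, 4.82 and 4.51 in the HFD hearts. Every HFD heart lay below the ND hearts, which were within 0.07 of each other. Rhebl1, a Rheb-like GTPase, changed by -0.35 (unadjusted p = 0.0294), and Prkag2, a regulatory subunit of AMPK that is prominent in heart, by 0.32 (unadjusted p = 0.0363). The kinases themselves changed little: Mtor by 0.06, Prkaa1 by 0.05 and Prkaa2 by -0.07, with unadjusted p-values above 0.05.

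Of the 28 other autophagosome genes, 5 (17.9%) were lower and 0 higher at an unadjusted p below 0.05, against 11.8% of the brightest probes of all genes. They were Fbxo32 (atrogin-1, a muscle ubiquitin ligase and known FOXO target) at -0.33, Tecpr1 (a tethering factor at the lysosome) at -0.28, Vamp8 (a SNARE of autophagosome fusion) at -0.22, Epg5 (another tether) at -0.21 and Nrbf2 (a subunit of the Atg14-containing kinase) at -0.19. Of 19 other mitophagy and mitochondrial dynamics genes, 16 had a lower mean in HFD, with a median of -0.08. At the limit was 1 of them (5.26%), under the 11.8% of the brightest probes of all genes. This was Rhot2 (Miro2, which links mitochondria to motor proteins), at -0.27 on its brightest probe (unadjusted p = 0.0267) and -0.24 on the other (unadjusted p = 0.0227).

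Of the 47 other lysosome genes tested, 4 were lower and 1 higher at that limit. This share of 10.6% lies under the 11.8% of the brightest probes of all genes. The lower ones were the proton pump subunits Atp6v1b2 (-0.32) and Atp6v0a1 (-0.27), the heparan sulfate hydrolase Sgsh (-0.29) and the acid sphingomyelinase Smpd1 (-0.25). The second Sgsh probe changed by -0.01 (unadjusted p = 0.968). Npc1, the cholesterol transporter of the lysosomal membrane, was higher by 0.36 (unadjusted p = 0.0345). The other tested subunits of the proton pump changed by -0.20 to 0.03.

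**Figure D5:**
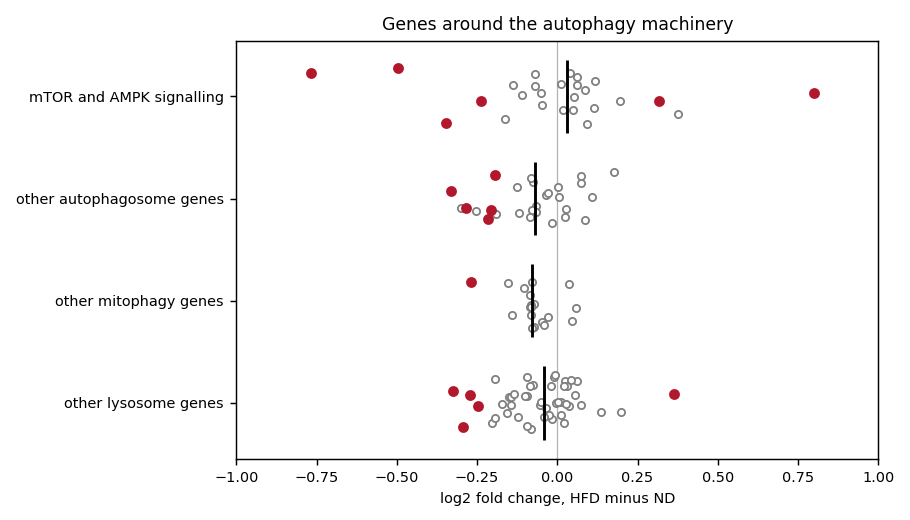
Each point is the log2 fold change (x axis, HFD minus ND) of 1 of the 120 genes around the autophagy machinery, by list, with filled points for the 17 at an unadjusted p below 0.05 and a black line at the median of each list. The signalling list reaches from -0.77 (Foxo3) to 0.80 (Foxo4), and the other lists stay within -0.33 to 0.36.

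Some genes listed as markers of other cell types differed between the diets at an unadjusted p below 0.05. Of 8 tested erythroid markers 5 were lower and 1 higher at that limit (median change -0.51). Of 6 tested skeletal muscle markers (median -0.45), 3 were lower, namely Acta1, Tnnc2 and Tnni2. Myh1, Myh2, Myh4 and Mylpf of that list were not tested. The mean level of the skeletal muscle markers was 0.97 to 1.35 in the ND hearts and 0.58 to 0.75 in the HFD hearts. For the 8 endothelial markers it was 3.02 to 3.03 and 2.95 to 3.09, and for the 8 fibroblast markers 3.63 to 3.74 and 3.29 to 3.84. At an unadjusted p below 0.05, 2 of the 8 endothelial and 1 of the 8 fibroblast markers were lower in HFD and 0 higher. Of the brightest probes of all genes, 11.8% differed at that limit. In these lists 0 markers passed the adjustment. What part the makeup of the tissue has in the differences above was not tested.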

How the data were processed

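Each array carried the RNA of 1 heart. The authors extracted the arrays with Agilent Feature Extraction (version 10.7 per the submitters' notes, 10.7.1.1 per the file headers). The deposited intensities are linear, background-subtracted within the array and not normalized between arrays; the deposited spot and background brightness, also an intensity, served the normexp alternative. The authors' deposited log2 values, made in a way that is not stated, were an alternative too, since each column matched the scanner values of its array in rank (Spearman's rho of 1 over 55681 probes, at most 0.954 with other arrays).

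Outlier spots of the software (127 to 190 per array) were left out, log2 intensities were set relative to the 75th percentile of the array (451.2 to 539.9), and spots of a probe were averaged. A probe was tested if all arrays of 1 diet or both had it well above background and each diet had 2 or more arrays with a value. The diets were compared with the lmFit and eBayes functions of limma 3.58.1 (two-sided, R 4.3.3, with statmod 1.5.0 and version 1.17.8 of data.table) with Benjamini-Hochberg adjustment over 27585 probes, and intervals are 95% intervals of that fit. The arrays were read and figures drawn in Python 3.11.15 (pandas 2.3.3, numpy 2.4.6, matplotlib 3.10.9). The code was tested on simulated data. The number of arrays limits the precision, and an exact permutation test of 3 against 3 cannot go below 0.1, so none is given.

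Values in each heart are given for member probes at an unadjusted p below 0.05, for the probe of largest change in each role group, and for all probes of a gene whose probes had opposite signs with 1 of them below that limit; related genes are named at that limit. Others named, such as Rb1cc1, were picked after their values were seen. Members, lists, motifs and rules were chosen with earlier results of these data known. Names and mm9 positions are those of the array design, and 42 of 42 genes matched RefSeq by transcript accession. The separate result of 1 member gene is not reported here; its probes are in the counts. The alternatives changed 1 choice at a time: outlier spots kept, a gene's probes averaged, quantile normalization, normexp (offset of 50), the deposited log2 values, probes of any brightness, a stricter filter (well above background on 6 of 6 arrays), limma with array weights, limma with robust variances and an intensity trend, a plain t-test as in the methods, slide row as a term, replicate number as a block, and each heart left out.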

Additional observations from a re-analysis of the deposited data

How the results depend on the processing

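The count of member probes past the adjustment was 0 in the main setting and in all 18 alternatives. The count at an unadjusted p below 0.05 was 5 in the main setting, all lower in HFD, against 11.7% of all probes. With no filter on dim probes it was 3, against 6.2% of all probes. An intensity trend and robust variances gave 8, against 12.2%. The count was also lower than 5 with the slide row as a term, which leaves an arm of 1 HFD heart. With 1 heart left out it was 2 to 6, against 7.8% to 12.4%. It was 2 without ND 1, ND 2 or HFD 1 and 3 without HFD 3. None of the member probes at that limit was higher in HFD under any of these settings. The count of probes without overlap (7) was 14 under quantile normalization (3 of them higher) and 15 in the authors' log2 table (3 higher), where 20.2% of all probes did not overlap. With 1 heart left out it was 7 to 20 (25.5% to 32.5% of all probes), since fewer hearts overlap less often: 11 without ND 1 or ND 2, 12 without ND 3, 14 without HFD 1 (7 higher) and 20 without HFD 2. The count of related genes (17) was 11 with no filter, where 6.2% of all probes were at that limit. With 1 heart left out it was 6 to 20, against 7.8% to 12.4%, with 6 without ND 1 and 9 without ND 2 or HFD 3. It was lower than 6 with the slide row as a term, which leaves an arm of 1 HFD heart. The cause of these shifts was not tested, other than that fewer hearts or more terms leave fewer degrees of freedom. The median change of the members was -0.0807 to 0.00952, each less than the SD between hearts (0.0676) away from the value reported, and was lowest without HFD 2 and above 0 only without HFD 1. Ulk1, Atg9a, Atg2a, Ctsl and the distal Bnip3l probe were lower in all 17 alternatives fitted by probe, as the lack of overlap fixes for all but Ulk1 when a heart is left out, and their adjusted p ran from 0.187 to 0.862. The signs turned for Sqstm1 without HFD 2 (with 1 heart left out, -0.0422 to 0.238) and for the Bnip3l probe 224 bases downstream without ND 2 (0.000111) and without HFD 1 (0.00986; -0.065 to 0.00986 with 1 heart left out).

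The labels number the hearts of each diet and give no pairing between the diets. The deviations of same-numbered hearts correlated at -0.15, 0.15 and 0.19, and those of differently numbered hearts at -0.30 to 0.19. With 3 hearts per diet these values cannot decide whether hearts were paired. With the replicate block, 3 member probes and 11 related genes had an unadjusted p below 0.05, where 10.9% of all probes did. Of these members and related genes, 0 passed the adjustment.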
